A study of Mus musculus with 4 samples.

Results

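The cardiac jelly genes described here are 9 genes of hyaluronan and of the proteoglycans bound to it, *Vcan*, *Has2*, *Hapln1*, *Hapln3*, *Cd44*, *Acan*, *Ugdh*, *Hmmr* and *Cemip2*. They were chosen by symbol, and each was found as 1 row of the 32285 genes counted. They were measured in single cells of dissected mouse hearts at E10.5 on the 10x Genomics droplet platform, where each captured transcript carries a unique molecular identifier (UMI) and is counted once. The controls carried floxed alleles of *Tek*, which encodes TIE2, and no Cre (labelled Tie2flfl, libraries 5 and 7). The mutants carried the same floxed alleles with the *Nfatc1Cre* knock-in (labelled Nfatcre-Tie2flfl, libraries 6 and 8), and are called *Tie2-cko*. *Nfatc1Cre* acts in the endocardium, so the myocardium of the mutants was not targeted directly. By the methods the mice had a mixed strain background, both sexes were used, somite-matched hearts of both genotypes came from the same litter, and their libraries were pooled in 1 lane. The labels do not say which libraries were matched or that replicates came from separate litters, so p-values here measure the spread between these libraries.

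Cardiac jelly is the extracellular matrix that lies between the endocardium and the myocardium of the embryonic heart, and that swells locally to form the endocardial cushions of the atrioventricular canal and outflow tract. Its backbone is hyaluronan, a long unsulfated sugar chain that HAS2 makes at the cell surface from UDP-sugars, 1 of which is supplied by UGDH. Versican (*Vcan*) and aggrecan (*Acan*) are chondroitin sulfate proteoglycans that bind hyaluronan, and the link proteins HAPLN1 and HAPLN3 hold that bond. CD44 and HMMR bind hyaluronan at or in cells, and CEMIP2 is a cell-surface protein implicated in hyaluronan breakdown.

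*Hapln1* and *Vcan* are neighbours. On GRCm38, *Hapln1* (ENSMUSG00000021613) lies on chromosome 13 from 89539796 to 89611652 on the forward strand and *Vcan* (ENSMUSG00000021614) from 89655312 to 89742509 on the reverse strand, so that they point towards each other across a gap of 43.659 kb that holds no annotated gene. *Acan* (ENSMUSG00000030607, chromosome 7, 79053483 to 79115099, forward strand) and *Hapln3* (ENSMUSG00000030606, chromosome 7, 79115102 to 79131018, reverse strand) likewise meet end to end, with 0.002 kb between them. *Has2* (ENSMUSG00000022367) lies on chromosome 15 from 56665627 to 56694539, *Cd44* (ENSMUSG00000005087) on chromosome 2 from 102811141 to 102901665, *Ugdh* (ENSMUSG00000029201) on chromosome 5 from 65413221 to 65435949 and *Hmmr* (ENSMUSG00000020330) on chromosome 11 from 40701395 to 40733422, all on the reverse strand. *Cemip2* (ENSMUSG00000024754) lies on chromosome 19 from 21778342 to 21858360 on the forward strand. GENCODE M21 places *Has2os* antisense to *Has2*, and other annotated genes overlap *Vcan*, *Hapln1*, *Cd44*, *Ugdh* and *Cemip2*. The strand setting of the counting is not given in the sources used here, so reads shared with these partners cannot be told apart.

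The promoters of *Vcan* and *Hapln1* are shown because these neighbours were highest in partly different cells and had genotype differences of opposite sign in chamber endocardium. Each line gives the 250 bases before the RefSeq start of the gene, on GRCm38.p6 and in the gene's own direction. For *Hapln1* the RefSeq start lies further in than the GENCODE M21 start at 89539796. The *Hapln1* window therefore lies inside the gene span given above, and not before it. Capitals mark matches to the E-box letters CANNTG on either strand, the only motif of those searched that matched in either of these promoters.
Vcan promoter, chr13:89742513-89742762, reverse strand: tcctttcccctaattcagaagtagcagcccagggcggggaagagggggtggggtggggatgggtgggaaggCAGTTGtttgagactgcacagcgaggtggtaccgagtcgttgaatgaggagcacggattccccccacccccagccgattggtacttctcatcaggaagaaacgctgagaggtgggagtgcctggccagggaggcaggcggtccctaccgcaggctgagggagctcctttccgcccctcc
Hapln1 promoter, chr13:89540386-89540635, forward strand: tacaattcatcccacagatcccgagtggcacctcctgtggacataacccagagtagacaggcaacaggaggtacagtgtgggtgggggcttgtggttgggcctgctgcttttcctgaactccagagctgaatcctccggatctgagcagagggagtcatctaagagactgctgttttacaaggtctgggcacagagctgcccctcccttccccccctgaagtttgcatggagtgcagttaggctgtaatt
The *Vcan* window has 62.4% G and C and 1 E-box, 173 bases before the start, and the *Hapln1* window has 54.4% G and C and none. Neither window holds the GATA letters AGATAA or the forkhead letters GTAAACA on either strand. Among 32851 promoters of this length, 66.2% hold the E-box letters, 9.99% the GATA letters and 3.17% the forkhead letters. Of the 9 genes, 7 had a promoter entry, and *Has2* and *Cemip2* had none.

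After filtering, 33419 cells remained, 5684 to 10097 per library, with a median of 14898 to 25740 UMIs. Between 12 and 29 cell barcodes were shared by any pair of libraries. Clusters named from marker genes held 88.2% of the cells in 14 cell types. The types ranked below are these named ones. The heart cell types were cardiomyocytes (CMs, 12420 cells), cushion mesenchymal cells (MCs, 3361), chamber endocardial cells (EdCs, 1588), cushion EdCs (1161), epicardial cells (1631) and vascular endothelial cells (ECs, 330). A cluster of 1549 cells with few UMIs stayed unnamed. It met 2 of 8 EdC markers, and its leading genes included *Gpr182* and *Emcn*, markers of chamber EdCs here. It held 562, 355, 396 and 236 cells of libraries 5, 6, 7 and 8, against 374, 139, 602 and 473 chamber EdCs. Its cells are not in the chamber EdC results. The dissections of libraries 5 and 6 held more cells from outside the heart. *Tek*, the targeted gene, had a level in chamber EdCs of 0.892 (library 5) and 1.005 (library 7) UMIs per 10000 in controls, against 0.129 (library 6) and 0.148 (library 8) in the mutants. Its log2 fold change was -2.52 with an edgeR adjusted p of 0.00219, which follows the labels. Which part of *Tek* is floxed is not given in the sources used here. The summed CM markers were 534 to 566 UMIs per 10000 in CMs and 12.2 to 28.0 in chamber EdCs.

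Transcripts of *Has2* were highest in the endocardial cushions. *Has2* encodes the hyaluronan synthase of the early heart. Its level, given here and below as the mean over cells of UMIs per 10000 UMIs of a cell, was 0.902, 1.06, 0.792 and 1.03 in cushion EdCs of libraries 5, 6, 7 and 8 (mean 0.945 ± 0.123, SD, n = 4 libraries). In cushion MCs it was 0.844, 0.905, 0.829 and 0.940 (0.879 ± 0.0520). The ranges of these cell types overlapped, and both stood above every other named type. The next named type was vascular ECs at 0.353 ± 0.227, where single libraries lay between 0.102 and 0.621. Chamber EdCs had 0.126, 0.0795, 0.0979 and 0.111, which was 0.109 of the cushion EdC level (0.0748 to 0.139 in single libraries), and CMs had 0.0521 ± 0.0168. When each cell was thinned to 5000 UMIs, 32.1% of cushion EdCs, 33.0% of cushion MCs, 3.91% of chamber EdCs and 2.36% of CMs held a *Has2* UMI, against 0.0661% of red blood cells, which should lack it. Without thinning, the shares were 59.1% of cushion EdCs, 11.3% of chamber EdCs, 8.44% of CMs and 0.687% of red blood cells, at median depths that ran from 11037 to 60176 UMIs over libraries and types. Thinning left out 312 CMs, 95 chamber EdCs, 20 cushion EdCs, 68 cushion MCs and 85 red blood cells as too shallow.

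*Ugdh*, which makes UDP-glucuronic acid for hyaluronan and for sulfated chains alike, was spread more widely. It was highest in cushion MCs, at 0.983, 0.984, 1.083 and 1.07 (1.03 ± 0.0540, n = 4), a range above that of every other type. Mesothelial-like mesenchyme (0.648 ± 0.135), pharyngeal and neural-crest-like mesenchyme (0.608 ± 0.145), epicardial cells (0.549 ± 0.0443) and cushion EdCs (0.493 ± 0.0551) followed with overlapping ranges. Chamber EdCs (0.307 ± 0.0446) and CMs (0.264 ± 0.0278) were lower still and overlapped each other, and red blood cells had 0.0261 ± 0.00584.

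*Vcan* was the most abundantly counted of the 9 genes, with 258412 UMIs and at least 1 UMI in 66.5% of the kept cells. Its level in cushion MCs was 12.8, 13.5, 12.8 and 12.1 in libraries 5, 6, 7 and 8 (12.8 ± 0.580, n = 4). Cushion EdCs had 7.85, 8.99, 6.85 and 8.19 (7.97 ± 0.887), and CMs had 3.21, 3.49, 3.99 and 3.48 (3.54 ± 0.326). These 3 types were separated in every library. Chamber EdCs had 0.663, 0.862, 0.648 and 1.29 (mean 0.866), so that the CM level exceeded that of the chamber endocardium 4.09-fold, with 2.70-fold to 6.15-fold in single libraries. The chamber EdC range overlapped those of epithelial cells (1.17 ± 0.126) and epicardial cells (0.681 ± 0.0420). After thinning, 93.0% of cushion MCs, 85.8% of cushion EdCs, 64.7% of CMs and 21.6% of chamber EdCs held a *Vcan* UMI, against 4.66% of red blood cells. Without thinning, the shares were 94.4% of cushion EdCs, 89.2% of CMs, 43.4% of chamber EdCs and 21.6% of red blood cells. The chamber EdCs therefore held *Vcan* in more cells than the red blood cells did, and in far fewer than the cushions did.

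The link protein gene *Hapln1* followed the endocardium and its mesenchyme rather than the muscle. It had 10.7, 12.7, 11.2 and 10.53 UMIs per 10000 in cushion EdCs (11.3 ± 0.963, n = 4) and 9.76, 10.7, 9.99 and 8.996 in cushion MCs (9.86 ± 0.700), ranges that overlapped although cushion EdCs were higher within each of the 4 libraries. Chamber EdCs had 4.197, 4.005, 4.66 and 3.40 (4.07 ± 0.521), 0.361 of the cushion EdC level, and were above epicardial cells (1.69 ± 0.0307) and vascular ECs (1.44 ± 0.301) in every library. In CMs the level was 0.0546 ± 0.00930, which overlapped that of red blood cells (0.0566 ± 0.0321). The thinned share of CMs with a *Hapln1* UMI, 2.22%, was close to the 1.92% of red blood cells and is read as background. In chamber EdCs 73.4% of thinned cells held a *Hapln1* UMI. Without thinning the shares were 88.4% of chamber EdCs, 11.2% of CMs and 9.52% of red blood cells.

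The 3 clusters of cushion MCs were not alike in these genes. Those led by *Twist1* (1668 and 987 cells) had *Vcan* at 13.6 and 13.0 and *Hapln1* at 10.7 and 12.3. The cluster led by *Stmn4*, *Postn* and *Inhba* (706 cells) had *Vcan* at 9.74, *Hapln1* at 3.56 and *Has2* at 1.05, against 0.809 and 0.863 of *Has2* in the others. These are means over all cells of a cluster, and the members were left out of the genes used for clustering.

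*Acan* and *Hapln3* were barely detected. *Acan*, the main proteoglycan of cartilage, gave 161 UMIs in all and was highest in CMs at 0.00337 ± 0.000794, with no UMI in chamber EdCs of any library. *Hapln3* gave 1029 UMIs. Among the named types its highest level was 0.0510 in foregut mesenchyme, over the 2 libraries that held it. Chamber EdCs followed with 0.0279, 0.0113, 0.0304 and 0.0136. An unnamed cluster of 116 cells, whose leading genes included *Prlr*, *Foxe1* and *Pax8*, was higher, with *Hapln3* at 0.329 over all its cells. That cluster also had *Cd44* at 0.489 and *Has2* at 0.423. Cushion EdCs and cushion MCs, which had the most *Hapln1*, had 0.000130 ± 0.000260 and 0.00239 ± 0.000695 of *Hapln3*.

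Of the receptors, *Cd44* was highest, among the named types, in macrophages and megakaryocytes (0.346 ± 0.192, n = 4, with single libraries between 0.218 and 0.623). Cushion MCs (0.120 ± 0.0236), CMs (0.115 ± 0.0154), vascular ECs (0.111 ± 0.0791) and cushion EdCs (0.0862 ± 0.0177) had overlapping ranges. Chamber EdCs had 0.0168, 0.0242, 0.0258 and 0.0276, and CMs exceeded them 4.85-fold (4.29-fold to 5.89-fold in single libraries). *Cemip2* was highest in endocardium and endothelium. Its level was 2.69, 2.99, 2.39 and 2.28 in chamber EdCs (2.59 ± 0.319), 2.25 ± 0.410 in cushion EdCs and 1.32 ± 0.265 in vascular ECs. The next were cushion MCs (0.461 ± 0.0635), neural cells (0.440 ± 0.0345 over the 2 libraries with enough of them) and epithelial cells (0.424 ± 0.135), whose ranges overlapped. Chamber and cushion EdCs overlapped in range, and CMs had 0.0747 of the chamber EdC level.

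**Figure D1:**
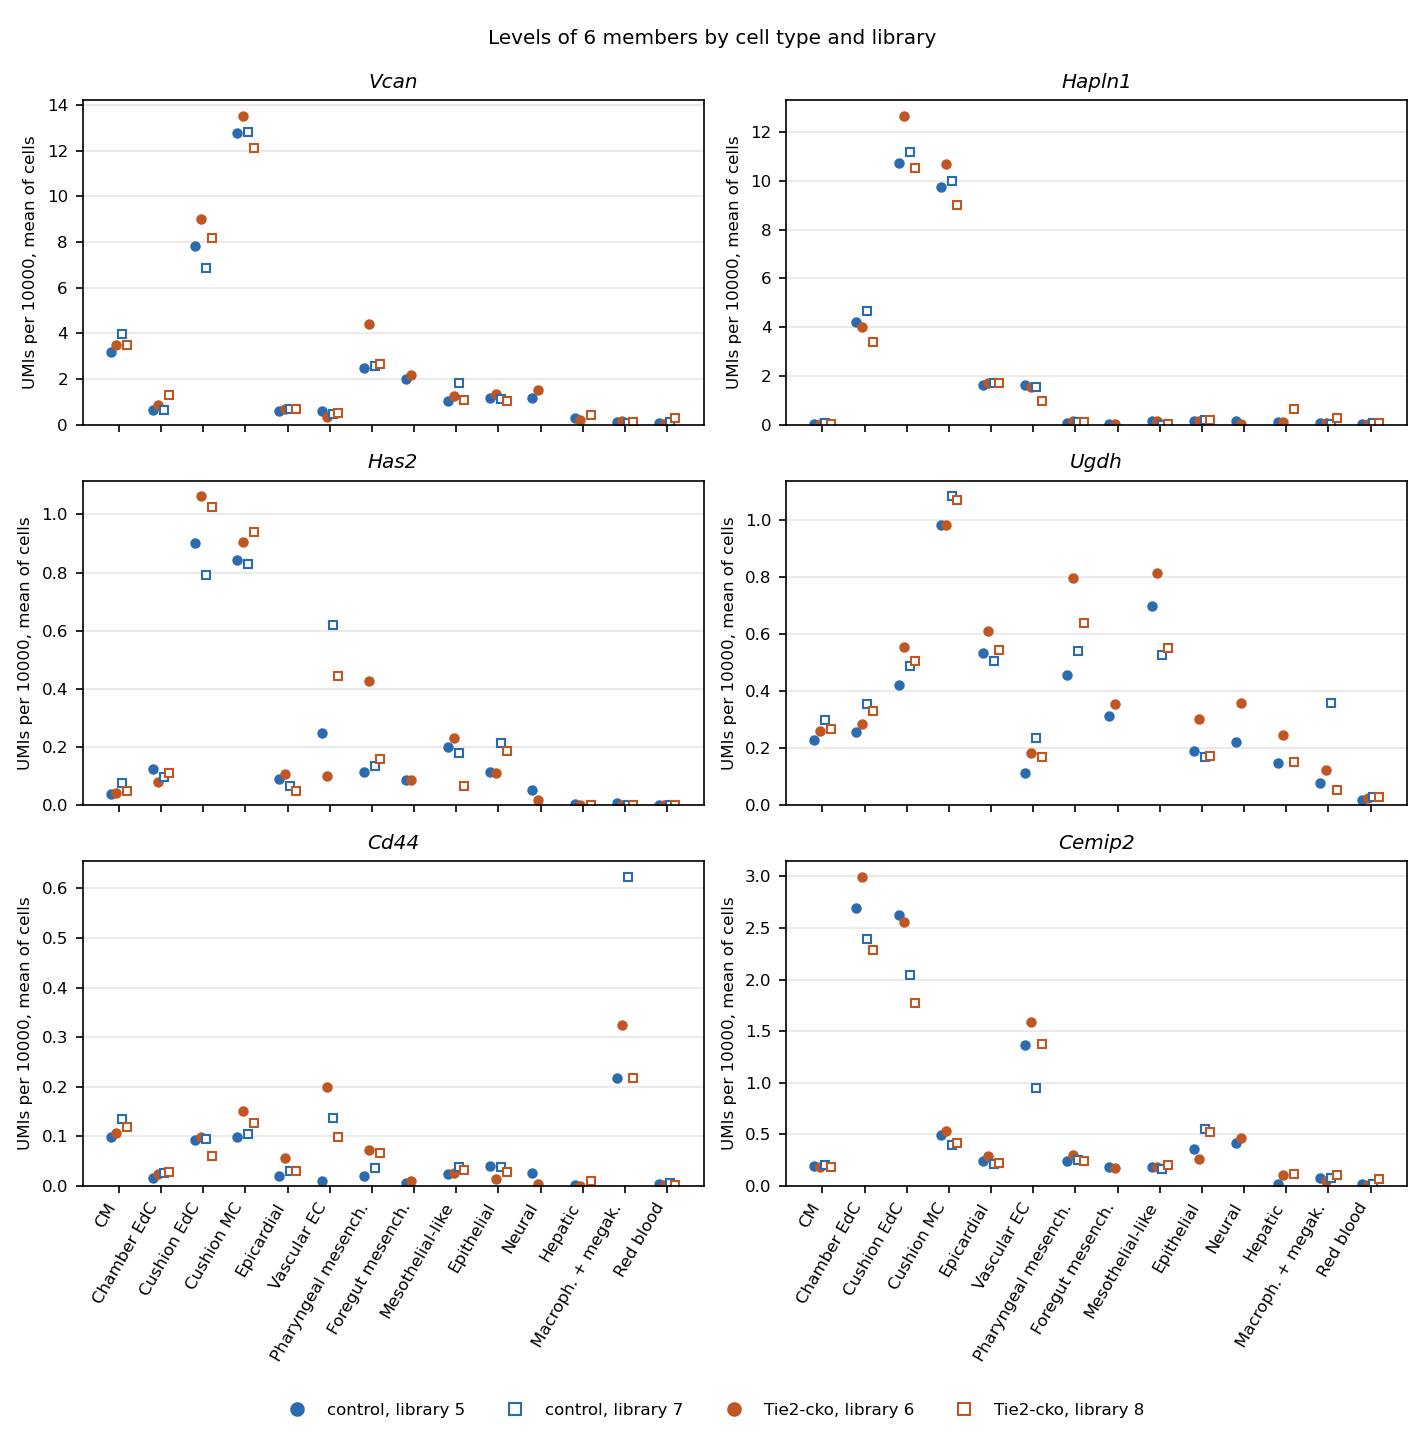
Mean level (UMIs per 10000, linear axes from 0) of *Vcan*, *Hapln1*, *Has2*, *Ugdh*, *Cd44* and *Cemip2* in 14 cell types, 1 point per library (control blue, *Tie2-cko* orange; filled points are libraries 5 and 6, open squares 7 and 8). *Vcan*, *Has2*, *Hapln1* and *Ugdh* are highest in a cushion type, *Cemip2* in EdCs, and types with fewer than 4 points were held by fewer libraries.

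*Hmmr* encodes a hyaluronan-binding protein that also acts on the mitotic spindle, and its levels differed between cell cycle phases within each cell type examined. Across the 14 types its mean level lay between 0.623 (cushion EdCs) and 1.32 (macrophages and megakaryocytes). Phases were scored without *Hmmr*. In CMs its level was 0.245 ± 0.00825 in G1, 0.414 ± 0.0362 in S and 2.06 ± 0.183 in G2/M (n = 4 libraries), and in chamber EdCs it was 0.135 ± 0.0173, 0.247 ± 0.0517 and 2.12 ± 0.235. Cushion EdCs, cushion MCs and epicardial cells reached 2.30 ± 0.195, 2.24 ± 0.175 and 2.12 ± 0.142 in G2/M. Red blood cells had 1.46 ± 0.102 in G2/M, and 32.6% of them held a *Hmmr* UMI after thinning.

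**Figure D2:**
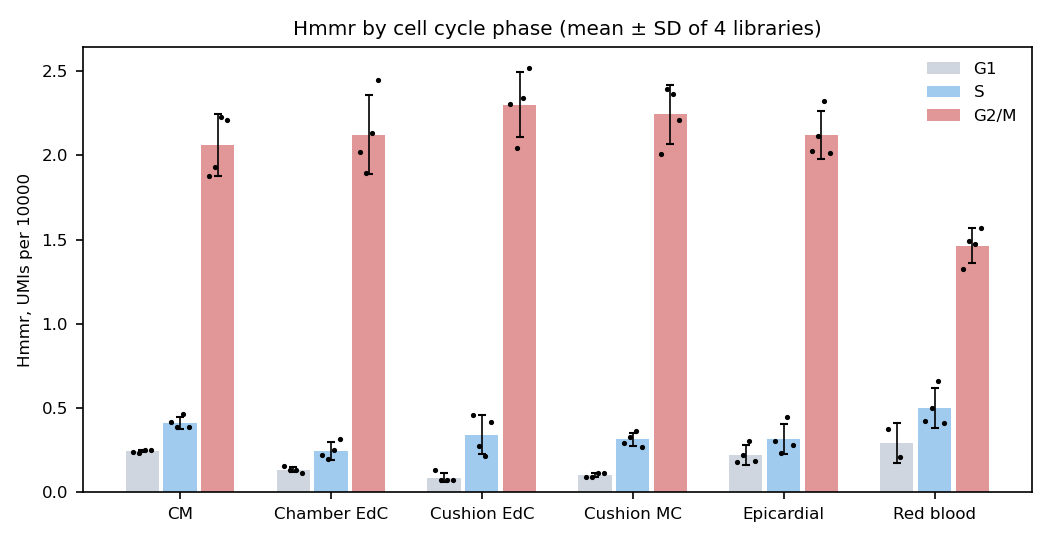
Mean *Hmmr* level (UMIs per 10000) by cell cycle phase in 6 cell types; bars are means over libraries, error bars are SD and points are libraries (4 each, but 2 for red blood cells in G1). Every G2/M bar stands above the G1 and S bars of its type.

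Within the myocardium *Has2* and *Ugdh* were highest in *Bmp2*-high CMs, and *Vcan* and *Cd44* had their highest means in the outflow tract. CM clusters were named trabecular, compact-like, atrial, outflow tract, and, for the sinus venosus and atrioventricular canal, *Bmp2*-high and *Shox2*-high, from markers in cells scaled within each library. In single libraries 89.2% to 94.1% of outflow tract, 77.5% to 88.1% of *Bmp2*-high and 17.4% to 28.0% of compact-like CMs were scored as G1. In CMs as a whole *Has2* was 0.0789 in G1, 0.0209 in S and 0.0290 in G2/M, and *Vcan* was 3.99, 3.15 and 3.08. The part of the phase in the order of regions was not tested. *Has2* was 0.292, 0.309, 0.450 and 0.295 in *Bmp2*-high CMs of libraries 5, 6, 7 and 8 (0.336 ± 0.0762, n = 4). That was 12.5-fold the level of trabecular CMs (0.0269 ± 0.00847), with 9.02-fold to 18.2-fold in single libraries, and it lay above every other CM region in each library. Outflow tract CMs (0.0662 ± 0.0302), *Shox2*-high CMs (0.0470 ± 0.0321), compact-like CMs (0.0220 ± 0.00621) and atrial CMs (0.0120 ± 0.00204) were lower, and neighbours in this order overlapped.

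*Vcan* differed in its order. It was 6.58, 7.03, 7.42 and 6.23 in outflow tract CMs (6.81 ± 0.520, n = 4) and 4.48, 4.37, 7.05 and 4.97 in *Bmp2*-high CMs (5.22 ± 1.25), ranges that overlapped through library 7. Compact-like (4.05 ± 0.333), trabecular (3.89 ± 0.363) and *Shox2*-high CMs (3.71 ± 0.546) overlapped one another. Atrial CMs had 0.959, 0.814, 1.02 and 0.847 (0.909 ± 0.0951), and trabecular CMs exceeded them 4.28-fold (3.56-fold to 5.09-fold). Trabecular and compact-like CMs were named from markers and not from position. A subcluster led by histone and mitotic genes, which met 3 of 6 markers, gave 2606 of the 4132 compact-like CMs. The ratio of trabecular to compact-like CMs was 0.962, with 0.888 to 1.078 in single libraries. That ratio leaves out a CM subcluster of 1664 cells that got no region. Over all its cells, this subcluster had *Myl2*, a ventricular marker, at 66.6, against 71.8 in the trabecular subcluster. Its *Vcan* level was 1.32, so *Vcan* was not even over all *Myl2*-high CMs.

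*Cd44* was highest in outflow tract CMs (0.246 ± 0.0334), 4.98-fold the trabecular level (4.09-fold to 6.79-fold), then in *Shox2*-high (0.193 ± 0.0225) and *Bmp2*-high CMs (0.177 ± 0.0236). Trabecular CMs had the least, 0.0494 ± 0.0136, and were below compact-like CMs (0.107 ± 0.0224) in each library. *Ugdh* was highest in *Bmp2*-high CMs, at 0.531 ± 0.0685, 3.10-fold the trabecular level (2.77-fold to 3.40-fold). *Cemip2* was likewise highest there, at 0.316 ± 0.0371, and *Hapln1* stayed at or below 0.0881 ± 0.0183 in every CM region. *Hmmr* ran the other way, from 1.33 ± 0.173 in compact-like CMs, a region that includes a cluster led by histone and mitotic genes, to 0.124 ± 0.0218 in the outflow tract.

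**Figure D3:**
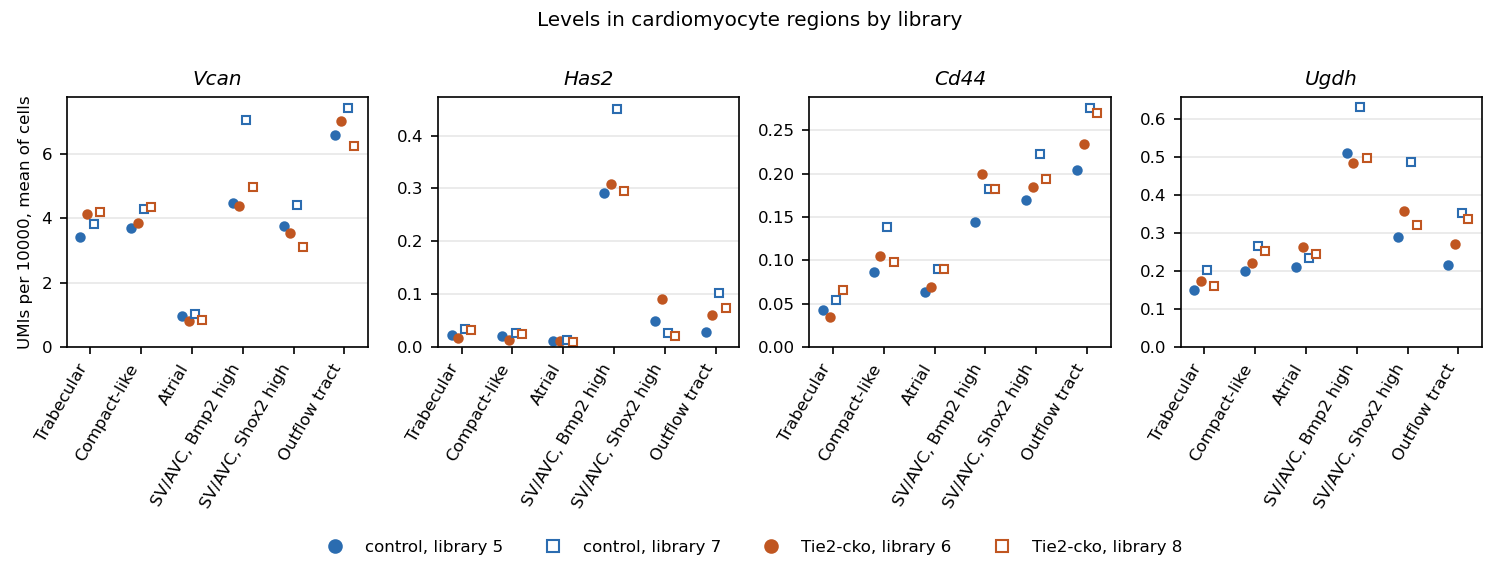
Levels (UMIs per 10000, linear axes from 0) of *Vcan*, *Has2*, *Cd44* and *Ugdh* in 6 CM regions, 1 point per library (control blue, *Tie2-cko* orange; SV/AVC, sinus venosus and atrioventricular canal). *Has2* stands out in the *Bmp2*-high region in all 4 libraries, whereas *Vcan* is lowest in atrial CMs.

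A high level per cell and a large share of the transcripts were different things, because CMs made up 61.4% of the cells of the 6 heart types. CMs held 62.5 ± 2.14% of the *Vcan* UMIs of these types (n = 4 libraries), cushion MCs 28.6 ± 2.61%, cushion EdCs 6.60 ± 0.763% and chamber EdCs 0.926 ± 0.162%. For *Has2*, cushion MCs held 52.2 ± 1.95%, cushion EdCs 19.8 ± 2.41% and CMs 19.1 ± 2.44%. For *Hapln1*, cushion MCs held 53.4 ± 2.08%, cushion EdCs 23.3 ± 2.25%, chamber EdCs 12.5 ± 3.10% and CMs 2.16 ± 0.262%. *Cemip2* was shared between CMs (32.7 ± 4.38%) and chamber EdCs (32.2 ± 4.61%), *Ugdh* between CMs (51.3 ± 2.90%) and cushion MCs (27.3 ± 3.69%), and CMs held 80.2 ± 2.56% of *Cd44*. These shares rest on which cells the dissociation released and captured, and on the depth per cell, whose median over libraries was 21271 to 46618.5 UMIs in CMs and 11037 to 27317 in chamber EdCs.

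**Figure D4:**
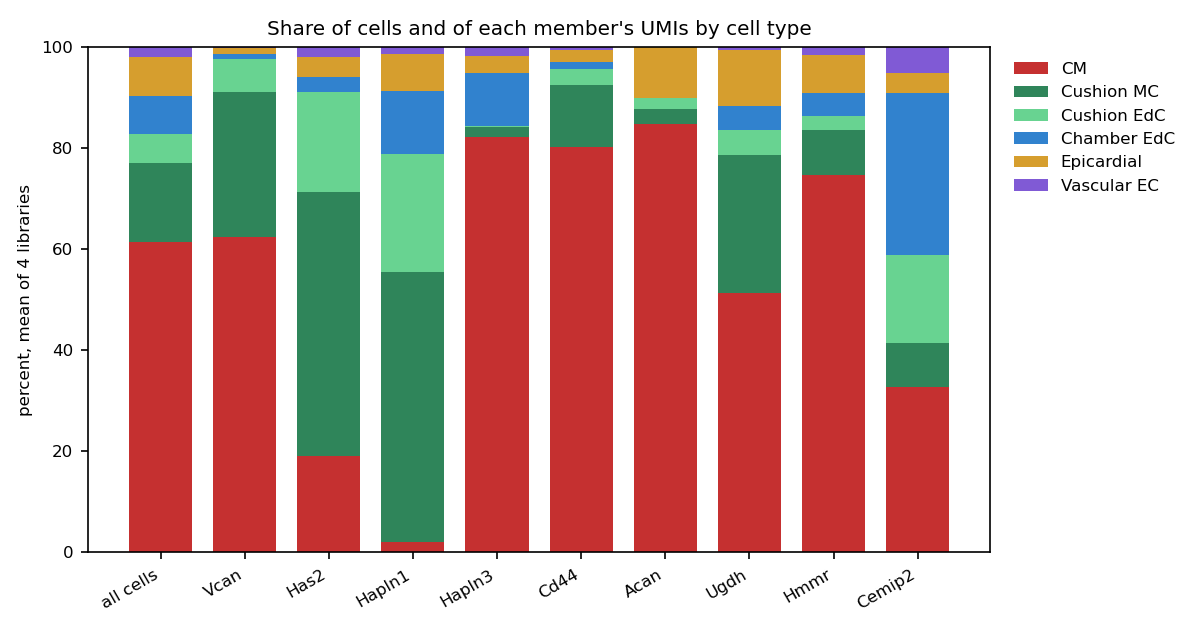
Share (percent, mean of 4 libraries) of all cells and of the UMIs of each of the 9 genes that fell in 6 heart cell types. The bar of *Vcan* is mostly CM and cushion MC, that of *Hapln1* has almost no CM part, and those of *Acan* and *Hapln3* rest on few UMIs.

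Across 11 cell types present in every library, the genes with the most similar pattern (Pearson r of log2 mean levels, 7755 genes compared) were *Angptl2* (0.929), *Ncam1* (0.922), *Rnd2* (0.917), *Tbx20* (0.917) and *Chsy1* (0.912) for *Vcan*. For *Has2* they were *Tmtc4* (0.953), *Fstl1* (0.947), *Smad7* (0.945), *Efcab14* (0.943) and *Kcnmb4* (0.942), and for *Hapln1* they were *Vat1* (0.964), *Adgrg6* (0.949), *Ulbp1* (0.922), *Spty2d1* (0.919) and *Enc1* (0.914). *Chsy1* encodes a synthase of the chondroitin chains that versican carries. Among the 9 genes themselves the closest pair was *Vcan* and *Has2* (0.821), while *Vcan* and its neighbour *Hapln1* had 0.481. These correlations are over 11 points made from the same 4 libraries and are given as a description.

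The genotype comparison asked whether loss of endocardial TIE2 changed these genes. In chamber EdCs, *Vcan* was 0.663 (library 5) and 0.648 (library 7) in controls. In the mutants it was 0.862 (library 6) and 1.29 (library 8), without overlap between the genotypes. The library-summed counts, 390 and 557 UMIs in controls and 452 and 838 in *Tie2-cko*, gave a log2 fold change of 0.78 (standard error 0.21, 1.72-fold), with an unadjusted p of 0.00542 and an adjusted p of 0.427 from edgeR's quasi-likelihood test, so *Vcan* did not pass the threshold of 0.05. *Hapln1* was 4.197 and 4.66 in controls and 4.005 and 3.40 in *Tie2-cko*, again without overlap (log2 fold change -0.39 with a standard error of 0.14, edgeR unadjusted p = 0.0191 and adjusted p = 0.618). The neighbouring genes thus had opposite signs. *Hapln3* had a log2 fold change of -0.43 (adjusted p = 0.882), *Cd44* of 0.39 (0.880), *Has2* of -0.17 (0.9499), *Hmmr* of -0.14 (0.888), *Cemip2* of 0.024 (0.987) and *Ugdh* of 0.0029 (0.997), all from edgeR. The sign of *Ugdh* turned under another scaling, with a log2 fold change of -0.0040 with RLE size factors.

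By edgeR no member was called in chamber EdCs among the 8 that passed the filter on low counts (*Acan* did not), where 0.00868% of all 11520 genes were called, *Tek* alone. DESeq2 called 0 as well, and 2 members, *Vcan* and *Hapln1*, had an unadjusted p under 0.05 by edgeR, as did 6.97% of all genes. The call depended on the design. With a block for libraries 5 and 6 against 7 and 8, each of which holds 1 library of each genotype, edgeR called *Vcan* (0.77, adjusted p = 6.18e-12) and *Hapln1* (-0.39, adjusted p = 0.00124) in chamber EdCs, among 853 genes in all. The labels do not give this pairing. Such a fit leaves little to estimate a gene's own spread, so its p-values lean on the spread shared across genes. For 3 of the 8, *Vcan*, *Hapln1* and *Hapln3*, the libraries of the genotypes did not overlap, and the same held for 33.7% of all genes tested. The *Vcan* difference rested on *Tie2-cko* library 8 in size, since its removal left a log2 fold change of 0.39, whereas removal of *Tie2-cko* library 6 gave 1.10. Without control library 7, *Vcan* passed (0.84, adjusted p = 0.0312 from edgeR), the remaining control library being assumed to vary like the *Tie2-cko* libraries.

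After thinning, *Vcan* UMIs were found in 18.0% and 15.5% of chamber EdCs in controls (95% Wilson intervals 14.4% to 22.4% and 12.8% to 18.8%) and in 21.9% and 30.9% in *Tie2-cko* (15.6% to 29.8% and 26.7% to 35.3%). For *Hapln1* the shares were 74.1% and 83.0% in controls and 72.7% and 64.0% in *Tie2-cko*. The intervals cover counting error only. With 2 libraries against 2, an exact two-sided permutation test of such a value cannot go below 0.333.

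Some other measures in the same cells also differed between the genotypes. For 33.7% of all genes tested there, the libraries of the genotypes did not overlap. Within the chamber EdCs the summed level of the 10 Cushion MC markers was 2.45 and 2.51 in controls and 2.81 and 2.98 in *Tie2-cko*, and that of the 6 Red blood markers was 76.0 and 34.4 in controls and 12.8 and 12.2 in *Tie2-cko*. The 8 CM markers summed to 17.9 and 25.5 in controls and to 12.2 and 28.0 in *Tie2-cko*, which overlapped. The 4 markers of Chamber EdC against other EdC summed to 9.07 and 8.47 in controls and to 10.2 and 9.40 in *Tie2-cko*. Sums of the other marker lists in these cells are not given here. The part of these sums in the result was not tested. The share of chamber EdCs scored as G1 was 38.8% and 30.9% in controls and 43.9% and 49.7% in *Tie2-cko*. Within G1 cells *Vcan* was 0.792 and 1.10 in controls and 0.904 and 1.45 in *Tie2-cko*, which overlapped. Within S cells it was 0.831 and 0.513 against 1.14 and 1.32, and within G2/M cells 0.217 and 0.342 against 0.446 and 0.891, neither of which overlapped. *Tie2-cko* library 6 held 139 chamber EdCs, of which 30.9% were scored as S and 25.2% as G2/M. The share of all genes without overlap within a phase is not given here, so the part of the phase was not tested.

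**Figure D5:**
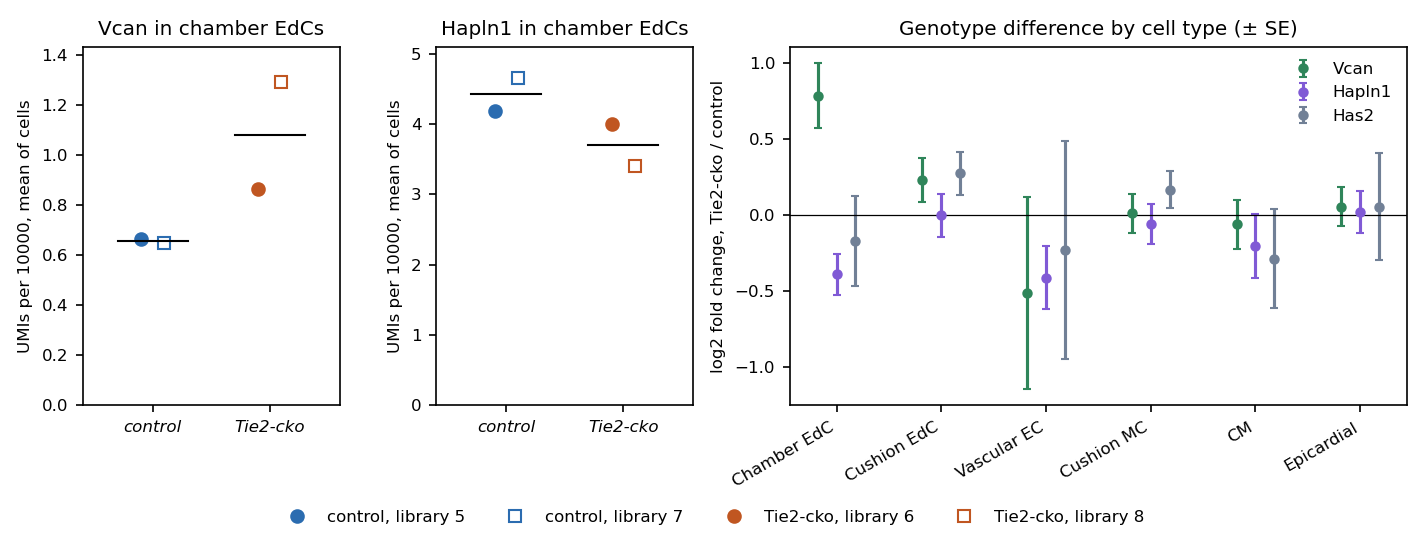
Levels (UMIs per 10000) of *Vcan* and *Hapln1* in chamber EdCs by library, with lines at the genotype means, and log2 fold changes of *Tie2-cko* over control (± standard error, edgeR) for *Vcan*, *Hapln1* and *Has2* in 6 heart cell types. *Vcan* in chamber EdCs has the largest positive value shown, 0.78, and no value passed an adjusted p of 0.05.

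In the other cell types and CM regions no member was called either. Over the 17 fits, 11 of cell types and 6 of CM regions, 125 member tests gave 0 calls by edgeR and 0 by DESeq2, with 6 at an unadjusted p under 0.05 (4.80%, against 1.56% of all genes tested). Among all genes, edgeR called 0.0446% in cushion EdCs, which were *Tek* and 4 haemoglobin genes, 0.042% in epicardial cells, which were 5 haemoglobin genes, and 0% in each of the other 14 fits besides chamber EdCs. In cushion EdCs *Vcan* had a log2 fold change of 0.23 (standard error 0.14), *Has2* of 0.27 (0.14) and *Hapln1* of -0.0027 (0.14). In cushion MCs, which descend largely from endocardium, *Vcan* had 0.011 (0.13), *Has2* 0.17 (0.12) and *Hapln1* -0.059 (0.13). In CMs, *Vcan* had -0.061 (0.16), *Has2* -0.29 (0.33) and *Hapln1* -0.21 (0.21). The remaining members at an unadjusted p under 0.05 were *Cd44* in cushion MCs (0.46, adjusted p = 1.00 from edgeR) and, in pharyngeal and neural-crest-like mesenchyme, *Cd44* (1.27), *Has2* (0.89) and *Ugdh* (0.56), each with an adjusted p of 0.989, where *Tie2-cko* library 6 held only 82 cells.

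The difference between cell types was then tested itself, with the library as a block. These fits also leave little to estimate a gene's own spread, so their p-values lean on the spread shared across genes. The genotype effect on *Vcan* was larger in chamber EdCs than in CMs by 0.81 on the log2 scale (standard error 0.14, adjusted p = 0.0246 from edgeR; 0.311% of all 15412 genes were called). It was larger than in cushion MCs by 0.77 (standard error 0.13, adjusted p = 0.00286; 1.14% of 12670 genes called) and than in cushion EdCs by 0.53 (standard error 0.13, adjusted p = 0.0505; 0.766% of 11877 genes called), the last of which missed the threshold. The size of these differences moved with single libraries, from 0.56 (without *Tie2-cko* library 8) to 1.06 (without *Tie2-cko* library 6) against CMs and from 0.38 to 1.09 against cushion MCs, at the same removals. For *Hapln1* the effect in chamber EdCs lay below that in cushion EdCs by 0.39 (log2 difference -0.39, standard error 0.065, adjusted p = 0.00346) and below that in cushion MCs (-0.31, standard error 0.073, adjusted p = 0.0336), but the difference from CMs was -0.20 (adjusted p = 0.619). The cushion MC comparison of *Hapln1* did not pass without control library 5 (-0.40, adjusted p = 0.0643) or without control library 7 (-0.26, adjusted p = 0.578). The cushion EdC comparison of *Vcan* fell to 0.20 without *Tie2-cko* library 8 (adjusted p = 0.564), all by edgeR. *Has2* showed no called difference from any of these types, with -0.43 against cushion EdCs, 0.076 against CMs and -0.30 against cushion MCs.

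The other genes of the pathway, in 8 lists, were examined in the same fits, and without a block no gene of any list was called by edgeR in any of the 17. In chamber EdCs, 8 of 10 genes of hyaluronan synthesis were tested, with a median log2 fold change of -0.011 against 0.0040 over all genes. *Gfpt2*, a gate of the hexosamine pathway, had 0.88 (adjusted p = 0.758 from edgeR), *Gfpt1* 0.10 and *Has2* -0.17. Among 5 of 7 genes of hyaluronan breakdown (median 0.024), *Hexa* had -0.14, *Hyal2* 0.079 and *Hyal1* 0.092. Among 5 of 6 receptor genes (median -0.066), *Lyve1* had 0.29, after *Cd44* and *Hmmr* given above. The 3 tested of 8 lecticans and link proteins were *Vcan*, *Hapln1* and *Hapln3*, and the 1 tested of 8 cross-linkers was *Ambp* (0.71, adjusted p = 0.936 from edgeR). Levels of *Ambp* were low and overlapped, at 0.0249 and 0 in controls and 0.0166 and 0.0124 in *Tie2-cko*.

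Genes that build or cut the chondroitin sulfate proteoglycans had some larger values. Among 17 of 22 genes of chondroitin sulfate synthesis (median 0.092), the sulfotransferase gene *Chst15* was 0.0378 and 0.0440 UMIs per 10000 in controls and 0.0735 and 0.0727 in *Tie2-cko* (log2 fold change 1.18, adjusted p = 0.257 from edgeR). The epimerase gene *Dse* had 0.72 (adjusted p = 0.388) and *Csgalnact2* 0.65 (adjusted p = 0.726). Among 14 of 18 other proteoglycans (median 0.13), *Dcn* had 1.68 (adjusted p = 0.565), at levels of 0.00744 to 0.0318, *Gpc3* 0.56 (adjusted p = 0.590) and *Sdc1* -0.26 (adjusted p = 0.838). *Adamts1*, a protease that cleaves versican, was 0.436 and 0.392 in controls and 0.687 and 0.625 in *Tie2-cko* (log2 fold change 0.53, adjusted p = 0.432), and its inhibitor *Timp3* was 0.188 and 0.215 against 0.234 and 0.378 (0.71, adjusted p = 0.476), within a list of which 4 of 8 were tested (median 0.23). *Adamts5* had -0.33 (adjusted p = 0.907). None of these values passed edgeR's threshold. With the block for libraries 5 and 6 against 7 and 8, edgeR called *Chst15*, *Dse*, *Dcn*, *Gpc3*, *Adamts1* and *Timp3* higher in chamber EdCs of *Tie2-cko*. The same block called *Gpc3* and *Timp3* higher and *Uap1* lower in cushion EdCs, *Stab2* higher in vascular ECs and *Timp3* lower in compact-like CMs. In *Bmp2*-high CMs it called *Col18a1* and *Dcn*, 1 of them higher and 1 lower. *Stab2* in vascular ECs was 0.133 and 0 in controls and 0.311 and 0.0617 in *Tie2-cko*, which overlapped. The number of all genes called with the block is given above for chamber EdCs only. For the other fits, no general rate stands beside these calls.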

How the data were processed

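The hearts of 4 embryonic libraries were dissociated and sequenced by the authors on the 10x Genomics platform, with 2 libraries per genotype, grouped by their labels. The deposited files hold raw UMI counts per gene and barcode, made by the authors with Cell Ranger (version 6.1.2 per the file headers) on mm10 (the submitters' processing notes) and not normalized. The annotation used is not given in the sources used here. The libraries held 169361996 to 259775540 UMIs.

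Barcodes needed 500 or more genes, 1000 or more UMIs and a mitochondrial share of 10% or less, and the highest Scrublet scores (scanpy 1.11.5) were removed as doublets at 0.8% per 1000 barcodes. Cells were clustered with Seurat 5.3.0 (2000 variable genes, 30 components, 20 neighbours, resolution 0.8), leaving out the members, the listed genes and *Tek* (88 genes). A cluster took the name of the type with the most markers present (at least 3 and over 0.5 of its list, each at 0.25 or more of its highest cluster). Clusters with a median UMI number under that of their library divided by 3 stayed unnamed. CMs were subclustered at resolution 0.5 after scaling within library, and a region needed 0.5 of its list at 0.8 of the highest subcluster. The thresholds for naming were chosen with the clusters already in view, and 3 of the 10 CM subclusters got no region. The level of a gene in a library is the average over cells of its UMIs per 10000, given with no test. Shares with a UMI were computed after thinning to 5000 UMIs.

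UMI counts were summed per library in types with at least 20 cells in each, and tested with edgeR 4.0.16 (quasi-likelihood, TMM, filterByExpr) in R 4.3.3, with Benjamini-Hochberg adjustment over all genes of a fit, and with DESeq2 1.42.0 as an alternative. The test was tried on simulated data. Gene positions came from GENCODE M21, promoters from RefSeq. The named genes are the 9 members, up to 3 genes of each list by smallest p in chamber EdCs, and the 5 genes most similar in pattern to *Vcan*, *Has2* and *Hapln1* with a level of at least 0.2 in some type. The members and lists were chosen with earlier results of these data known.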

Additional observations from a re-analysis of the deposited data

Results flagged for a closer look

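The effect of the genotype differed between cell types for *Vcan* and *Hapln1*, by edgeR's test of the difference itself with the library as a block. For *Vcan* the log2 effect in chamber EdCs exceeded that in CMs by 0.81 (standard error 0.14, adjusted p = 0.0246 from edgeR). It exceeded that in cushion MCs by 0.77 (standard error 0.13, adjusted p = 0.00286 from edgeR). Both passed in each alternative that kept all libraries. With 1 library left out their size ran from 0.56 to 1.06 and from 0.38 to 1.09, lowest without *Tie2-cko* library 8. These fits leave little to estimate a gene's own spread, so their p-values lean on the spread shared across genes. For *Hapln1* the log2 effect in chamber EdCs minus that in cushion EdCs was -0.39 (standard error 0.065, adjusted p = 0.00346 from edgeR), which also held in each alternative that kept all libraries. Minus that in cushion MCs it was -0.31 (standard error 0.073, adjusted p = 0.0336 from edgeR), which did not hold in every alternative. In chamber EdCs alone, neither gene was called by edgeR without a block, and both were called with a block for libraries 5 and 6 against 7 and 8. The fold-change of each type and some marker sums are given above, and their part was not tested.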

How the results depend on the processing

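No paired analysis was possible from the labels, because controls and *Tie2-cko* libraries share no replicate number. The block for libraries 5 and 6 against 7 and 8 was set by their content of cells from outside the heart, known from earlier results, and it changed the calls of *Vcan* and *Hapln1* in chamber EdCs. Of the results recomputed under each alternative, the count of members called stayed at 0 in 176 of 183, the log2 fold changes kept direction and side of the threshold in 235 of 262, the levels moved by less than 1 SD in 66 of 70 and the differences between cell types were kept in 69 of 81. In chamber EdCs, 1 member was called with no filter beyond 1 UMI (*Vcan*, 0.77) and 2 with a block for libraries 5 and 6 against 7 and 8, and 0 to 1 with 1 library left out. That block also called 1 member each in compact-like CMs (*Hapln1*, -0.83) and *Bmp2*-high CMs (*Vcan*, -0.42). The number of all genes it called in those regions is not given here, so no general rate stands beside these calls. Without *Tie2-cko* library 8, *Vcan* in vascular ECs had a log2 fold change of -1.98. All genes called in chamber EdCs numbered 21 with DESeq2, 157 with no filter, 853 with the block, 4 with more doublets removed (1.6% per 1000) and 2 to 155 with 1 library left out, against 1; the cause was not tested.

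Signs turned for values near 0. *Ugdh* in chamber EdCs was -0.0040 with RLE size factors, -0.0034 with DESeq2, -0.0076 with no filter and -0.014 at resolution 1.2, and *Hapln1* in cushion EdCs was 0.020 with more doublets removed and 0.00079 at resolution 1.2. With 1 library left out, the log2 fold changes in chamber EdCs ran from -0.17 to 0.17 for *Ugdh*, -0.58 to 0.14 for *Has2* and -0.14 to 0.18 for *Cemip2*. They ran from -0.23 to 0.14 for *Vcan*, -0.65 to 0.19 for *Has2* and -0.42 to 0.00085 for *Hapln1* in CMs, from -0.035 to 0.059 for *Vcan* and -0.13 to 0.0047 for *Hapln1* in cushion MCs, and from -0.057 to 0.050 for *Hapln1* in cushion EdCs. The difference of the *Vcan* effect from cushion EdCs passed with no filter (0.51), more doublets removed (0.64) and resolution 1.2 (0.53), with 0.20 to 0.80 over libraries left out. Those ranges were -0.63 to 0.73 for *Has2* against CMs, -0.37 to 0.020 for *Hapln1* against CMs (passing without *Tie2-cko* library 6) and -0.40 to -0.25 for *Hapln1* against cushion MCs. Summed UMIs over summed totals moved the level of *Vcan* in cushion MCs to 13.6, of *Cemip2* in chamber EdCs to 2.96 and of *Hmmr* in macrophages and megakaryocytes to 1.56, and a stricter cell filter (at least 1500 genes, at most 5% mitochondrial) moved the last to 1.46. The alternatives for differences between cell types, and a finer CM subclustering (0.8), were chosen after seeing the data. Mesothelial-like mesenchyme got no name in the clustering of all cells at resolution 1.2, and atrial CMs got none in the finer CM subclustering. With more doublets removed, mesothelial-like mesenchyme and macrophages fell under 20 cells in a library.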

Other observations

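The enzymes and partners around the 9 genes were highest in several cell types, some of them outside the heart, given here as levels (UMIs per 10000, mean ± SD over 4 libraries) with no test. *Tnfaip6* and *Ptx3*, whose products cross-link hyaluronan, were highest in cushion MCs (0.0991 ± 0.0149 and 0.111 ± 0.0261), while *Ambp* and *Itih2*, which supply the heavy chain donors, were highest in hepatic cells (8.69 ± 0.875 and 4.39 ± 0.612, over 3 libraries), a type from outside the heart. *Chsy1*, *Chst11* and *Chst3*, which extend and sulfate chondroitin chains, were also highest in cushion MCs (0.535 ± 0.0476, 0.148 ± 0.0232 and 0.0526 ± 0.0191). The hyaluronidase gene *Hyal2* was highest in cushion EdCs (0.857 ± 0.0804).

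The receptors of endothelium differed in place. *Lyve1* was highest in chamber EdCs (0.251 ± 0.0877) and *Stab2* in vascular ECs (0.126 ± 0.135, listed at 0 in control library 7). Epicardial cells had the highest levels of the small proteoglycan gene *Dcn* (4.81 ± 0.888) and of *Sdc4* (1.77 ± 0.0913), and cushion EdCs had the highest levels of the basement membrane proteoglycan genes *Col18a1* (5.01 ± 0.626), *Hspg2* (1.78 ± 0.312) and *Agrn* (0.570 ± 0.105). *Adamts5* was highest in cushion EdCs (0.195 ± 0.0611).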
